A study of Mus musculus with 20 samples.

Results

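The epidermal growth factor (EGF) receptor ligands are a small family of growth factors, and 6 of them (Areg, Ereg, Hbegf, Tgfa, Egf and Btc) were followed here together with their receptor gene Egfr. These 7 genes were chosen by symbol and matched to 7 of the 49315 gene identifiers in the deposited tables. Each ligand is made as a precursor anchored in the cell membrane and is released by a protease, for several of them ADAM17. The released ligand binds the receptor tyrosine kinase EGFR and starts signalling through RAS and the ERK kinases. The receptor is best known from epithelial and stromal cells, while amphiregulin, the product of Areg, is also made by leukocytes such as eosinophils, basophils, mast cells, innate lymphoid cells and regulatory T cells, and is known for its role in tissue repair and type 2 immunity. HB-EGF, the product of Hbegf, is made by macrophages, endothelium and smooth muscle among others.

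The libraries were made from eosinophils that had been sorted by flow cytometry from mouse lung, each from the pooled lungs of 3 to 5 mice, so that values of single mice are not known. Day 7 libraries (n = 5) came from Balb/c lungs grafted into C57BL/6 mice, taken 7 days after transplantation, and the titles of these samples state that no costimulatory blockade (CSB) was given, although the growth protocol shared by all samples mentions grafting only under blockade. Costimulatory blockade withholds from T cells the accessory signals of activation. Resting libraries (n = 5) came from the lungs of untreated C57BL/6 mice. The labels describe the eosinophils of the grafts as cells of the recipient. Grafts under blockade were not analysed here, because their columns could not be tied to samples. Nothing says that pools were housed or operated on separately, and the p-values cover only the variation among these pools, which may be technical. The day 7 and resting columns stood in separate tables, so batch and group cannot be told apart.

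Total counts were 15695074 to 26683784 per day 7 library and 6666577 to 12883144 per resting library. The eosinophil markers Siglecf and Ccr3 averaged 222 ± 70.2 and 443 ± 254 CPM at day 7, and 148 ± 34.6 and 356 ± 141 CPM in resting lung (TMM-scaled CPM, read counts relative to the library's total, mean ± SD, n = 5 each). Over the list of 8 eosinophil markers, 1 was called higher and 4 lower, or 62.5% called beside 46.7% of all 16500 tested genes. Of all tested genes, 23.3% were called higher and 23.4% lower, the background for each count of called markers here and below. Summed CPM of the 8 eosinophil markers on library totals was 726 to 2840 at day 7 and 1380 to 2680 in resting lung. No difference of that sum was called (exact permutation test, adjusted p = 0.317). Epx, the eosinophil peroxidase, averaged 6.89 ± 3.83 CPM at day 7 and 93.1 ± 69.2 CPM in resting lung. Markers of other cells were present in the same libraries. Of the 14 marker lists, 4 had a higher summed level at day 7 and 7 a lower one (exact two-sided permutation test of 5 against 5, adjusted over the 14 lists). Monocyte and macrophage markers (8 of 10 called higher, 0 lower) summed to 2750 to 5670 CPM at day 7 and 1030 to 1600 CPM in resting lung. T cell markers (10 of 10 called higher) summed to 299 to 810 CPM at day 7 and 92.1 to 140 CPM in resting lung, and those of regulatory T cells and innate lymphoid cells to 147 to 236 CPM at day 7 and 56.6 to 75.8 CPM in resting lung. Endothelial markers (10 of 10 called lower) summed to 85.8 to 167 CPM at day 7 and 2680 to 3850 CPM in resting lung, and epithelial markers (9 of 10 called lower) to 36.3 to 474 CPM at day 7 and 3260 to 5000 CPM in resting lung. Neutrophil markers summed to 4200 to 8500 CPM at day 7 and 7980 to 11300 CPM in resting lung, with 0 of 6 markers called. The part of these cells in the results on growth factor genes was not tested.

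**Figure D1:**
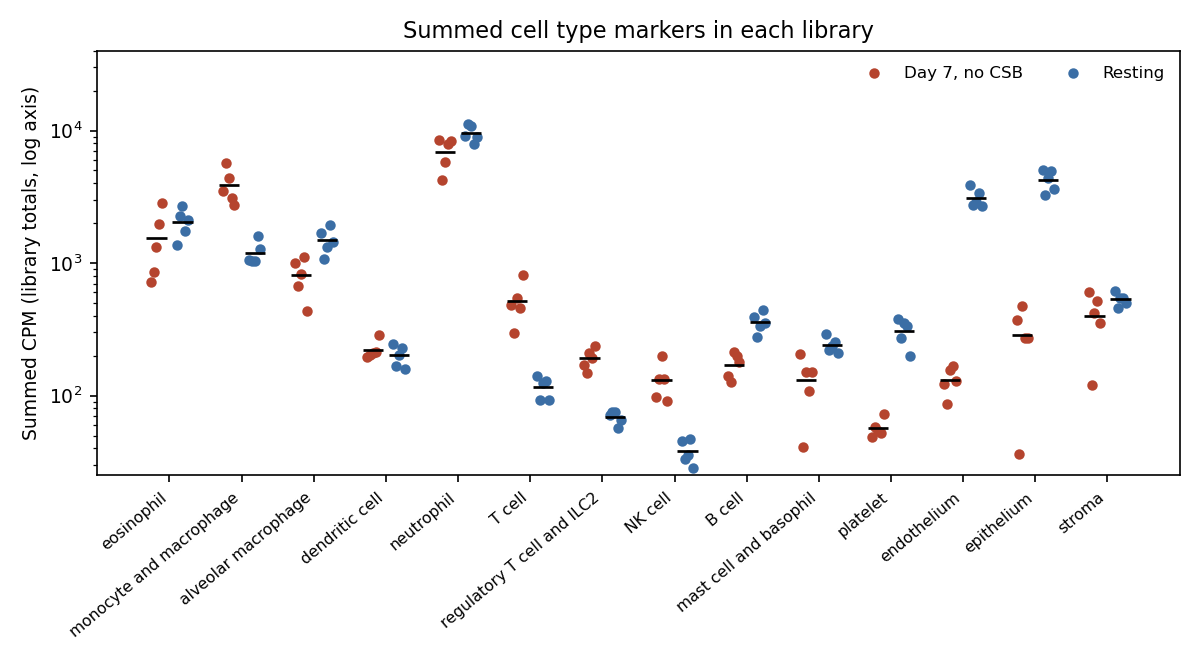
Summed CPM of the markers of 14 cell types (log axis), with a point per library and a line at the mean, day 7 without CSB on the left of each pair and resting on the right (n = 5 each). Endothelial sums lie at 85.8 to 167 CPM at day 7 and at 2680 to 3850 CPM in resting lung, while monocyte and macrophage sums lie at 2750 to 5670 CPM at day 7 and 1030 to 1600 CPM in resting lung.

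Promoters are shown for the ligand whose transcripts rose most among the 6 ligands, Areg, and for a ligand and the receptor that were lower at day 7, Tgfa and Egfr. Each runs from 250 bases before to 50 bases after the start of the gene (RefSeq, GRCm38.p6, plus strand in all 3), and capitals mark the motif matches described after them. They span chr5:91139349-91139648 for Areg, chr6:86194972-86195271 for Tgfa and chr11:16751953-16752252 for Egfr.
Areg: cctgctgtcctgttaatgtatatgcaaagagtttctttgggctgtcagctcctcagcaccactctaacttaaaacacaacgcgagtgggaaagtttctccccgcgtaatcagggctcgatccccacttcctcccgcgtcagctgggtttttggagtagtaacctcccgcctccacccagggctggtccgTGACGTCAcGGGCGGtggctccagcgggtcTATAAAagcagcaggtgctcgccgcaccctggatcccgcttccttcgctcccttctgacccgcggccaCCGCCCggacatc
Tgfa: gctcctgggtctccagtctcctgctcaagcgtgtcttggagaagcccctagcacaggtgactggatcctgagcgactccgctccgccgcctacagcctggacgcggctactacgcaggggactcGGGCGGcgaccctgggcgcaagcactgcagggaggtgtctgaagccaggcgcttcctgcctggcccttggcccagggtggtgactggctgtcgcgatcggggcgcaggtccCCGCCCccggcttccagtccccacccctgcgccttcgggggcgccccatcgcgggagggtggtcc
Egfr: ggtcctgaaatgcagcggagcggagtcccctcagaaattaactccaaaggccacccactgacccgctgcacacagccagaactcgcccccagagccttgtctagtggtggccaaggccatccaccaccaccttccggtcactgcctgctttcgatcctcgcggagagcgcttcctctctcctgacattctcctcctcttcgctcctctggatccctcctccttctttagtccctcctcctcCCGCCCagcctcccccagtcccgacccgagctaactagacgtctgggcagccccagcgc
The Areg promoter held the cyclic AMP response element TGACGTCA from base -61, a GC box (GGGCGG) from base -52, the TATA box letters TATAAA from base -31, and a GC box on the opposite strand (CCGCCC) from base 38, counted from the start of the gene. The CRE letters stood in 1.79% of the 32851 promoters of this length in the table, TATAAA in 13.6% and the GC box in 35.7%, on either strand. The Tgfa promoter held a GC box from base -126 and another on the opposite strand (CCGCCC) from base -15. The Egfr promoter held 1, on the opposite strand, from base -9. Neither TGACGTCA nor TATAAA was found in those 2 windows. No promoter of Ereg, which was also higher at day 7, was in the set searched. The 3 windows therefore cannot show whether a motif goes with the direction of change. The motifs TGANTCA (AP-1, 7.81% of all promoters), TTCNNNGAA (STAT, 8.3%), the interferon-stimulated response element (ISRE, 3.44%) and ACGTG (HRE, 19.6%), searched on both strands, had no match in the 3 windows. No 2 of the matches shared a base. A match is a run of letters and was not tested as a binding site.

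Amphiregulin and epiregulin transcripts were higher in the day 7 grafts, and those of HB-EGF, transforming growth factor alpha and the receptor were lower. Of the 6 members with enough counts to be tested, 2 were called higher, against 23.3% of all 16500 tested genes, and 3 were called lower, against 23.4% (edgeR's quasi-likelihood test, adjusted p below 0.05). The groups did not overlap for 5 of the 6 tested members, and for 35.1% of all tested genes. With library totals alone as the scale, 33.8% of the called genes were higher, against 49.9% with TMM, and the median change over all genes moved by -0.19 (log2). In bulk libraries, fewer cells of a type and less RNA per cell cannot be told apart.

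Areg encodes amphiregulin (ENSMUSG00000029378, chromosome 5, 91139599 to 91148432, plus strand, mm10). Its level was 37.8, 27.4, 27, 7.91 and 31.5 CPM in day 7 replicates 1 to 5, against 6.68, 4.28, 3.51, 5.54 and 4.89 CPM in resting replicates 1 to 5. Every day 7 library lay above every resting library, but day 7 replicate 4 stood close to the resting range and the other 4 stood well above it. The log2 fold change was 2.41 ± 0.35 (SE), or 5.3-fold (adjusted p = 9.09e-05). It rested on 2512 counts over the day 7 libraries and 247 over the resting ones. Among the markers of cells known to make amphiregulin, Foxp3, the transcription factor of regulatory T cells, averaged 5.13 ± 1.12 CPM at day 7 and 0.954 ± 0.614 CPM in resting lung. Mcpt8, a basophil protease, averaged 36.3 ± 31.3 CPM at day 7 and 4.55 ± 4.23 CPM in resting lung. Both rose in the test, with an adjusted p of 0.000101 for Foxp3 and 0.0086 for Mcpt8. Mcpt8 was the 1 of 6 mast cell and basophil markers called higher, while Kit, the stem cell factor receptor of mast cells, was called lower (28.8 ± 1.70 CPM at day 7, 140 ± 19.6 CPM in resting lung) and 4 were not called. The summed level of these 6 markers was lower, at 41.2 to 206 CPM at day 7 and 208 to 294 CPM in resting lung (exact permutation test, adjusted p = 0.0124). This sum, with Kit included, averaged 132 ± 61.5 CPM at day 7 and 243 ± 33.6 CPM in resting lung. The ranges nearly met, and a sum without Kit was not taken. Gata3, a transcription factor of type 2 lymphocytes, averaged 5.96 ± 1.26 CPM at day 7 and 5.38 ± 0.97 CPM in resting lung (adjusted p = 0.577). The part of these cells in the Areg level was not tested.

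Ereg encodes epiregulin, a ligand of EGFR and ERBB4 (ENSMUSG00000029377, chromosome 5, 91074622 to 91093646, plus strand). It had 8.23, 2.47, 2.31, 2.44 and 3.07 CPM in day 7 replicates 1 to 5, against 2.12, 0.298, 1.65, 0.947 and 1.7 CPM in resting replicates 1 to 5. Day 7 replicate 1 was far above the other 4, and the lowest day 7 library was only just above the highest resting one. Ereg rose by 1.44 ± 0.48 (log2 fold change ± SE, adjusted p = 0.0257), which is 2.71-fold. The call ended without day 7 replicate 1 (0.93, adjusted p = 0.075), without resting replicate 4 (1.36, adjusted p = 0.0582) and with library totals alone (1.23, adjusted p = 0.052).

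Hbegf encodes heparin-binding EGF-like growth factor (ENSMUSG00000024486, chromosome 18, 36504927 to 36515805, minus strand). It had 21.8, 14.6, 9.65, 11.1 and 8.19 CPM in day 7 replicates 1 to 5, against 61.1, 35.7, 47.9, 36.9 and 46.9 CPM in resting replicates 1 to 5. The groups were well apart, and the highest library of each group was its replicate 1. Hbegf fell by 1.81 ± 0.25 on the log2 scale, to 0.285 of the resting level (adjusted p = 5.79e-05). Endothelial marker sums, given above, were lower in the same day 7 libraries, and monocyte and macrophage sums were higher. Alveolar macrophage sums were lower on average, at 434 to 1110 CPM at day 7 and 1070 to 1930 CPM in resting lung. Of the 5 markers on that list, 3 were called lower and 1 higher, or 80% called beside 46.7% of all tested genes. The part of these cells in the fall of Hbegf was not tested.

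Tgfa encodes transforming growth factor alpha, a ligand typical of epithelium and macrophages (ENSMUSG00000029999, chromosome 6, 86195223 to 86275719, plus strand). Its level was 1.1, 0.44, 0.863, 0.989 and 1.45 CPM in day 7 replicates 1 to 5, against 4.03, 1.89, 2.38, 3.79 and 4 CPM in resting replicates 1 to 5. All day 7 libraries were below all resting libraries. Tgfa fell by 1.73 ± 0.34 on the log2 scale (adjusted p = 0.000975), on 90 counts over the day 7 libraries and 162 over the resting ones.

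Egf, the founding ligand of the family (ENSMUSG00000028017, chromosome 3, 129677565 to 129755316, minus strand), was low in both groups. It ranged from 0.791 to 1.43 CPM (median 1.28) at day 7 and from 0.593 to 2.17 CPM (median 1.48) in resting lung. The ranges overlapped and the log2 fold change was -0.18 ± 0.36 (SE, adjusted p = 0.721), on 114 counts over the day 7 libraries and 65 over the resting ones. The change was smaller than its SE, and the smallest change that could have been detected was not computed. Betacellulin, encoded by Btc (ENSMUSG00000082361, chromosome 5, 91357261 to 91402994, minus strand), did not pass the filter on low counts. It had 1 to 4 counts in each day 7 library and 1 to 12 counts in each resting library, close to the floor of 3 counts, which equals 0.112 to 0.191 CPM at day 7 and 0.233 to 0.45 CPM in resting lung. In the fit without that filter its log2 fold change was -1.58 ± 0.79 (adjusted p = 0.126).

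The receptor gene Egfr (ENSMUSG00000020122, chromosome 11, 16752203 to 16918158, plus strand) was detected at a low level in both groups. It had 3.6, 1.43, 3.22, 1.85 and 2.75 CPM in day 7 replicates 1 to 5, against 8.69, 6.17, 4.65, 10.7 and 5.78 CPM in resting replicates 1 to 5. Every day 7 library was below every resting one. Egfr fell by 1.47 ± 0.30 on the log2 scale, to 0.361 of the resting level (adjusted p = 0.0012). Epithelial marker sums were lower in each of the same day 7 libraries. Of the 8 stromal markers 3 were called lower, 2 higher and 3 not called, or 62.5% called beside 46.7% of all tested genes. Stromal sums overlapped, at 120 to 600 CPM at day 7 and 455 to 618 CPM in resting lung (exact permutation test, adjusted p = 0.186). Pdgfra, a fibroblast receptor, was called lower (4.50 ± 2.29 CPM at day 7, 79.4 ± 13.9 CPM in resting lung). Col1a1, a collagen gene of the same list, was called higher (91.4 ± 39.4 CPM at day 7, 47.5 ± 5.35 CPM in resting lung). The part of these cells in the Egfr level was not tested. The antisense gene Egfros, which overlaps Egfr, had 21 counts over all 10 libraries, against 592 for Egfr.

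**Figure D2:**
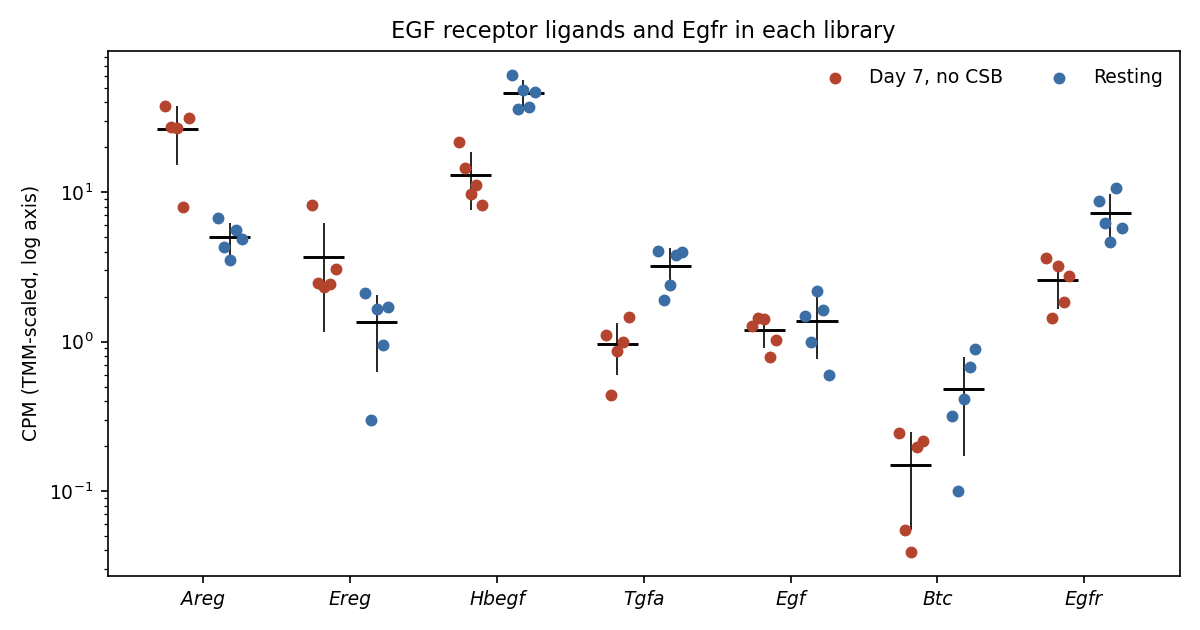
Level of each ligand gene and of Egfr (TMM-scaled CPM, log axis), with a point per library, a line at the mean and a bar of 1 SD, day 7 without CSB on the left of each pair and resting on the right (n = 5 each). Areg lies at 7.91 to 37.8 CPM at day 7 and 3.51 to 6.68 CPM in resting lung, Hbegf at 8.19 to 21.8 CPM at day 7 and 35.7 to 61.1 CPM in resting lung, and the points of Egf and Btc overlap between groups.

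Per length of transcript the leading ligand differed between the groups. Levels were set side by side as CPM per kilobase of merged exons, on library totals. At day 7 the order was Areg with 20.1 ± 8.29, Hbegf with 2.49 ± 0.938, Ereg with 0.828 ± 0.538, Egfr with 0.212 ± 0.074, Tgfa with 0.14 ± 0.0562, Egf with 0.0979 ± 0.0208 and Btc with 0.0311 ± 0.0198 CPM per kilobase (mean ± SD, n = 5). In resting lung it was Hbegf with 10.1 ± 2.43, Areg with 4.39 ± 1.20, Egfr with 0.683 ± 0.257, Tgfa with 0.531 ± 0.178, Ereg with 0.348 ± 0.189, Egf with 0.13 ± 0.0575 and Btc with 0.113 ± 0.0729. Among neighbours in the day 7 order, the libraries of Areg and Hbegf, of Ereg and Egfr, and of Egf and Btc did not overlap, while those of Hbegf and Ereg, of Egfr and Tgfa, and of Tgfa and Egf did. Among neighbours in the resting order, Hbegf and Areg, and Areg and Egfr, did not overlap, and each later pair did.

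Areg made up 82, 85.5, 88.7, 67.4 and 90.2% of the summed per-length level of the 6 ligands in day 7 replicates 1 to 5, against 28.2, 30.9, 20.9, 34.3 and 26.8% in resting replicates 1 to 5. Hbegf made up 11.9, 11.5, 7.97, 23.7 and 5.9% in the day 7 libraries and 64.9, 64.9, 71.6, 57.4 and 64.7% in the resting ones. Areg was therefore the largest share in each day 7 library and Hbegf in each resting library, including day 7 replicate 4, whose Areg level was the lowest of its group. In that replicate Hbegf had more counts than Areg (168 against 120). The order there rests on the division by merged exon length (1215 bases for Areg, 4834 for Hbegf). The level of Areg per length was 2.84 to 15.3 times that of Hbegf at day 7 and 0.292 to 0.598 times that of Hbegf in resting lung, a ratio taken within each library that no scaling between libraries can change. The 6 ligands together summed to 23.7 ± 9.04 CPM per kilobase at day 7 and 15.6 ± 3.60 in resting lung, with overlapping ranges of 9.34 to 33.9 at day 7 and 11.6 to 21.4 in resting lung.

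**Figure D3:**
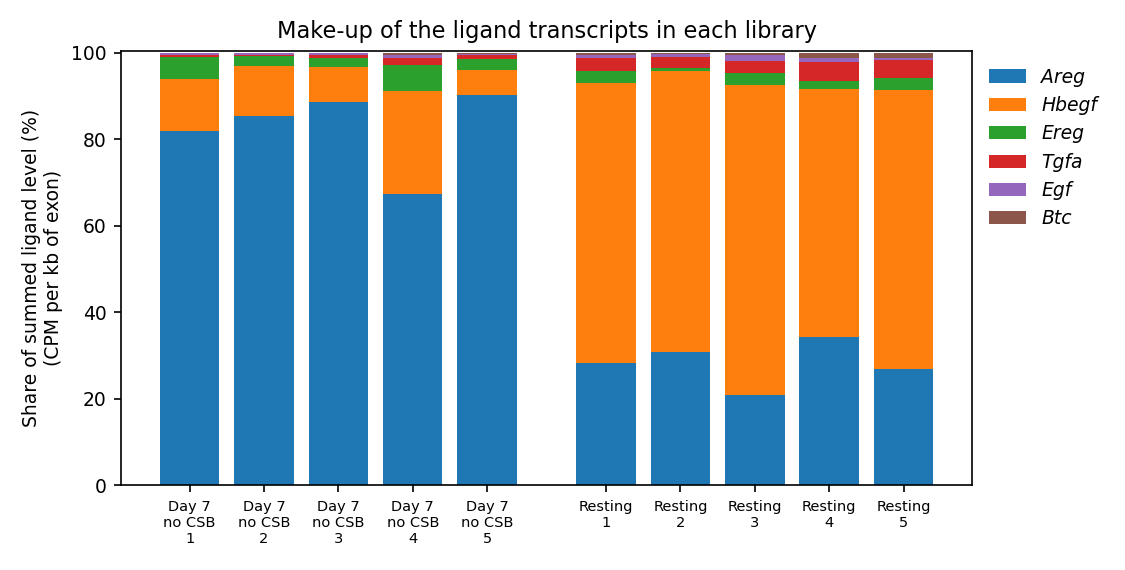
Share of each ligand in the summed level of the 6 ligands (percent, from CPM per kilobase of exon) in each library, day 7 without CSB at the left and resting at the right. Areg takes 67.4 to 90.2% of the bar in the day 7 libraries and 20.9 to 34.3% in the resting libraries, where Hbegf takes 57.4 to 71.6%.

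Among the remaining ligands and receptors of the ErbB family, Nrg1 stood higher in the grafts and Erbb2 lower. Nrg1 encodes neuregulin 1, a ligand of ERBB3 and ERBB4. It had 96, 129, 79.3, 53.4 and 31 CPM in day 7 replicates 1 to 5, against 4.56, 3.08, 3, 5.41 and 2 CPM in resting replicates 1 to 5. The groups were far apart, and Nrg1 rose by 4.46 ± 0.40 on the log2 scale, or 22.1-fold (adjusted p = 1.2e-06). Monocyte and macrophage marker sums were 3480, 5670, 4410, 3120 and 2750 CPM in day 7 replicates 1 to 5. Eosinophil marker sums were 726, 862, 1320, 1960 and 2840 CPM in the same replicates. The part of these cells in the Nrg1 level was not tested. Nrg4, another ERBB4 ligand, averaged 2.24 ± 0.89 CPM at day 7 and 3.99 ± 1.61 CPM in resting lung and was not called (adjusted p = 0.0697). Epgn, Nrg2 and Nrg3 had too few counts to be tested.

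Erbb2 encodes the receptor without a ligand of its own that pairs with the other family members. It had 1.52, 0.275, 0.235, 1.78 and 1.19 CPM in day 7 replicates 1 to 5, against 17.8, 10.1, 10.4, 7.17 and 8.82 CPM in resting replicates 1 to 5. No library of one group reached the range of the other, and Erbb2 fell by 3.49 ± 0.48 on the log2 scale (adjusted p = 5.76e-05). Erbb3, the neuregulin receptor whose own kinase is weak, averaged 3.39 ± 0.684 CPM at day 7 and 5.84 ± 1.49 CPM in resting lung (adjusted p = 0.0148). This call ended without resting replicate 2 (adjusted p = 0.0523) and without the filter on low counts (adjusted p = 0.0565). Erbb4 was not tested.

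Genes of ligand shedding were called higher in 4 of 11 cases and lower in 3, or 63.6% called beside 46.7% of all tested genes. Their median log2 fold change was -0.29, beside 0.05 over all tested genes. Adam17, the protease that releases amphiregulin, HB-EGF and TGF-alpha from the membrane, had 324, 291, 255, 169 and 145 CPM in day 7 replicates 1 to 5, against 96.7, 87.5, 106, 98 and 118 CPM in resting replicates 1 to 5. All day 7 libraries were above the resting ones, and Adam17 rose by 1.23 ± 0.20 on the log2 scale (adjusted p = 0.000248). Adam9, a related metalloprotease, rose by 1.06 ± 0.19. Rhbdf1 and Rhbdf2 encode iRhom1 and iRhom2, which carry ADAM17 to the cell surface, and iRhom2 is the form of myeloid cells. Rhbdf1 fell by 3.56 ± 0.31 on the log2 scale (1.48 ± 0.674 CPM at day 7, 17.7 ± 3.93 CPM in resting lung), while Rhbdf2 averaged 151 ± 39.8 CPM at day 7 and 139 ± 14.6 CPM in resting lung and was not called (adjusted p = 0.569). Timp3, an inhibitor of ADAM17 held in the matrix, fell by 3.36 ± 0.41 on the log2 scale (31.2 ± 16.6 CPM at day 7, 322 ± 31.7 CPM in resting lung). Endothelial and epithelial marker sums were also lower in the day 7 libraries, and their part in the Timp3 level was not tested.

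Of the 16 adaptors and kinases between the receptor and ERK, 3 were higher, 2 lower and 11 not called, or 31.2% called beside 46.7% of all tested genes, with a median of 0.14. Grb2, the adaptor that couples the receptor to RAS activation, rose by 1.09 ± 0.13 on the log2 scale (221 ± 14.6 CPM at day 7, 104 ± 18.2 CPM in resting lung). Mapk3, which encodes the kinase ERK1, fell by 0.89 ± 0.12 on the log2 scale, and Ptpn11, the phosphatase SHP2, fell by 0.47 ± 0.09.

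Brakes on the receptor and on ERK were called higher in 6 of 18 cases and lower in 6, or 66.7% called beside 46.7% of all tested genes, with a median of -0.05. Spry4 and Spry1 encode Sprouty proteins, which restrain receptor signalling to RAS. Spry4 averaged 1.55 ± 0.964 CPM at day 7 and 40.4 ± 6.27 CPM in resting lung, and it fell by 4.70 ± 0.41 on the log2 scale (adjusted p = 9.12e-07). Endothelial and epithelial marker sums were also lower in these day 7 libraries, and their part in the Spry4 level was not tested. Spry1 fell by 2.77 ± 0.34. Socs5, an adaptor reported to lower EGFR levels, fell by 1.68 ± 0.20 on the log2 scale. Dusp4, a nuclear phosphatase of ERK, averaged 22.4 ± 7.75 CPM at day 7 and 4.68 ± 1.3 CPM in resting lung and rose by 2.26 ± 0.25.

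Genes that ERK signalling induces were called lower in 6 of 12 tested cases and higher in 1, with a median of -0.39. Over all tested genes 23.4% were called lower and 23.3% higher. In either direction 58.3% of the list were called, beside 46.7% of all tested genes. Fosb and Fos, subunits of the AP-1 transcription factor, fell by 1.86 ± 0.17 and 0.93 ± 0.23 on the log2 scale. Ier2, an immediate early gene, averaged 236 ± 66.7 CPM at day 7 and 514 ± 78.4 CPM in resting lung and fell by 1.12 ± 0.18. Ccnd1, the cyclin of the G1 phase, fell by 1.26 ± 0.16. Many stimuli other than EGFR ligands induce these genes. Of 4 receptors for signals reported to induce Areg, 2 were called higher and 0 lower, or 50% called, which is near the 46.7% of all tested genes. Il1rl1, the receptor of interleukin-33, had 52.2, 39.1, 58.6, 80.6 and 110 CPM in day 7 replicates 1 to 5, against 22.5, 36.2, 27, 22 and 37 CPM in resting replicates 1 to 5. All day 7 libraries were above all resting libraries, but the lowest day 7 library (39.1 CPM) was only just above the highest resting one (37 CPM). Il1rl1 rose by 1.23 ± 0.26 on the log2 scale (adjusted p = 0.00179). Ptger2, a prostaglandin E2 receptor that raises cyclic AMP, rose by 1.00 ± 0.20.

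Over all 70 genes of the pathway lists, 65 were tested, of which 17 were called higher and 19 lower, or 55.4%, beside 46.7% of all tested genes. With library totals alone 13 were called higher and 24 lower.

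**Figure D4:**
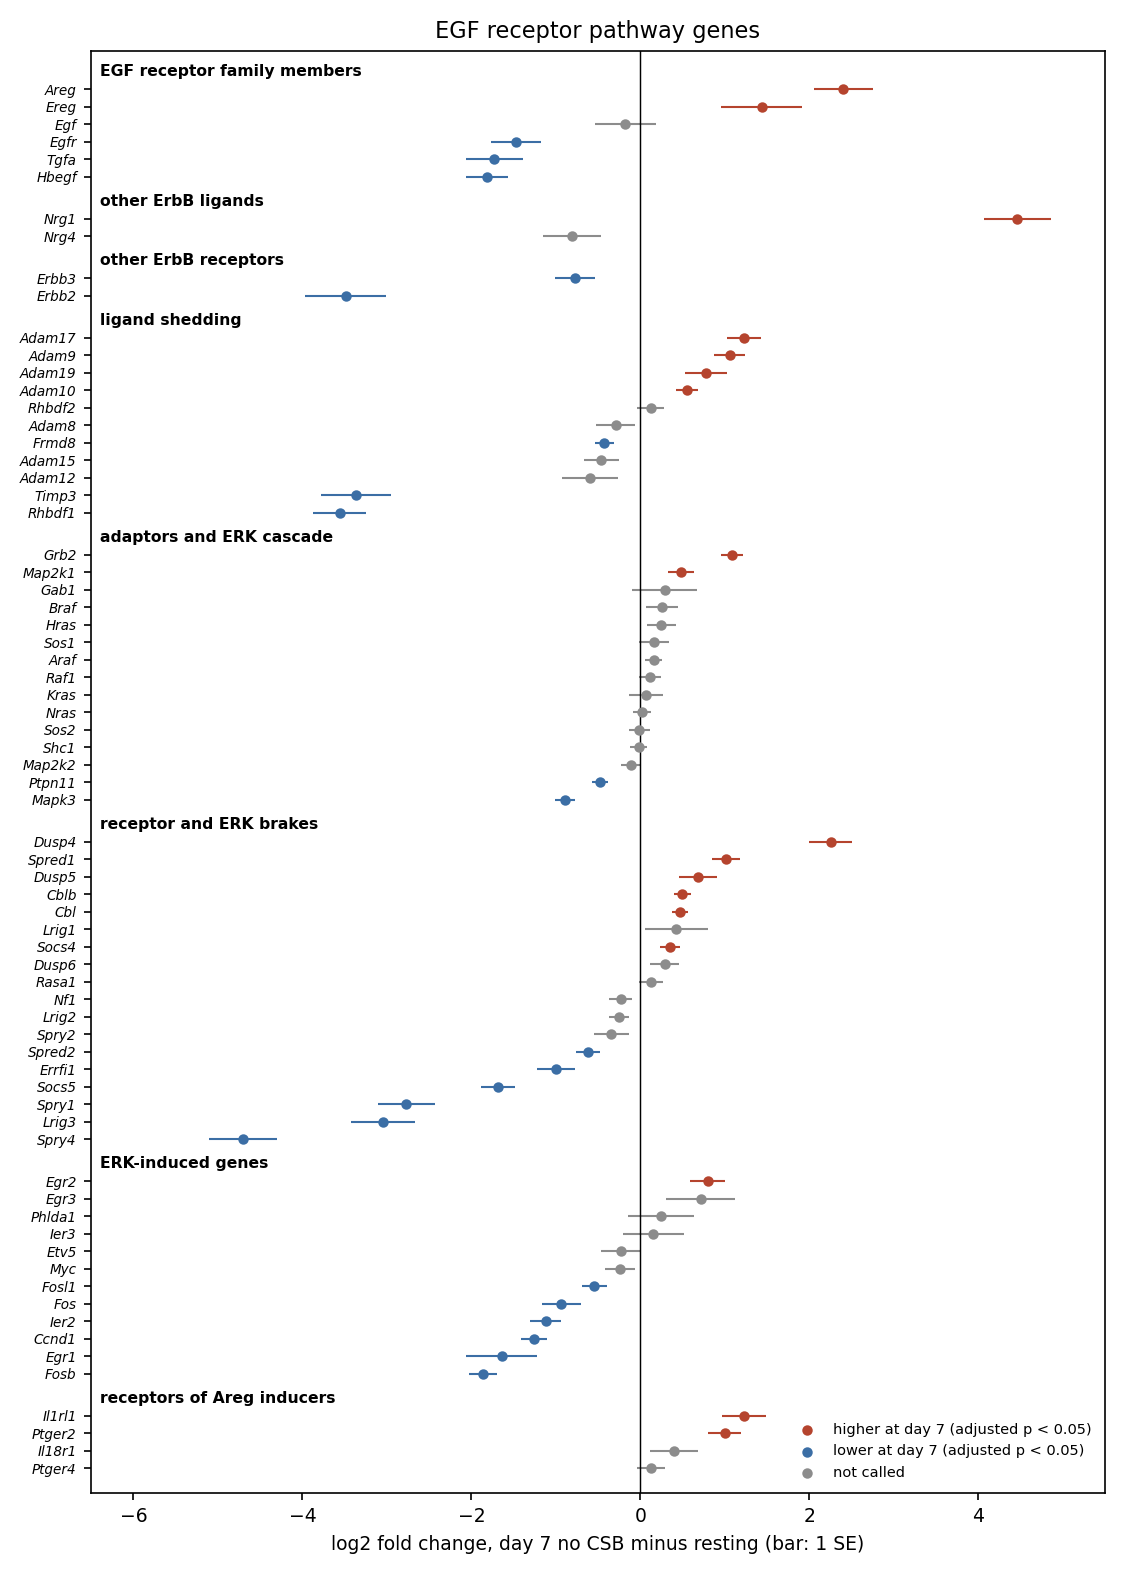
Log2 fold change (day 7 without CSB minus resting) of the tested genes by list (all but 1 of the ERK cascade), with a bar of 1 SE and colour for the call at an adjusted p below 0.05. Nrg1 at 4.46 and Areg at 2.41 lie to the right, Spry4 at -4.70 and Erbb2 at -3.49 to the left, and 11 of the 16 adaptors and ERK cascade genes were not called.

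Areg, Ereg and Btc are neighbours on chromosome 5, with the Ereg start 65 kb before and the Btc start 263.4 kb after that of Areg. Within 500 kb of this cluster 31 genes are annotated, of which 15 were tested, with 6 called higher and 5 lower, beside 23.3% higher and 23.4% lower of all tested genes. Besides Areg and Ereg the higher ones were Cxcl1, Cxcl2, Cxcl3 and Cxcl5, which encode chemokines that attract neutrophils. Cxcl2 averaged 1956 ± 1370 CPM at day 7 and 799 ± 123 CPM in resting lung (log2 fold change 1.29). Cxcl1 averaged 123 ± 66.9 CPM at day 7 and 46.8 ± 9.82 CPM in resting lung (1.4). The groups overlapped for Cxcl2, Cxcl3 and Cxcl5, and did not for Cxcl1. Pf4 and Ppbp, chemokines of platelet granules, dropped by 1.79 and 4.89 in log2 CPM. Both are also on the platelet marker list, whose other 3 genes were called lower too. Cxcl15, a further chemokine that attracts neutrophils, is known from lung epithelium. It averaged 7.14 ± 4.70 CPM at day 7 and 36.3 ± 7.31 CPM in resting lung and fell by 2.34 on the log2 scale (adjusted p = 0.00135). Epithelial marker sums, given above, were lower too, and their part in the Cxcl15 level was not tested. Mthfd2l, an enzyme of mitochondrial folate metabolism, fell by 1.42 on the log2 scale. Genes that rose and genes that fell were thus interleaved in this region. Cxcl1, Cxcl2 and Cxcl3 resemble each other in sequence, and the counting of reads that match several of them is not stated, so their split is uncertain.

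**Figure D5:**
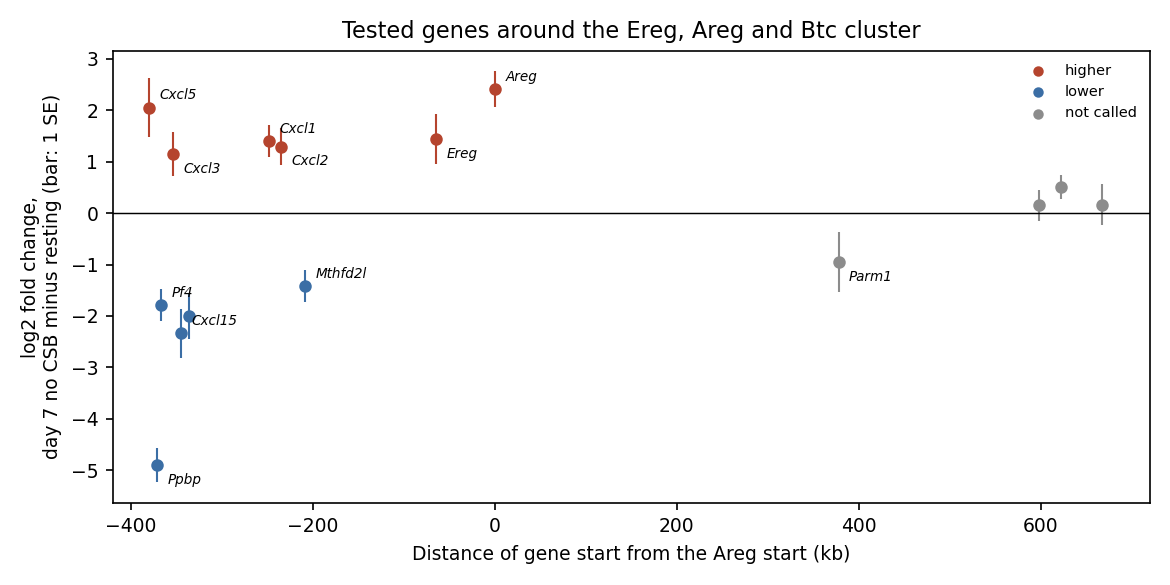
Log2 fold change (day 7 without CSB minus resting, bar 1 SE) of the 15 tested genes around the cluster against the distance of each gene's start from the Areg start in kb. Areg at 2.41 and Ereg at 1.44 lie above 0, as do the 4 higher Cxcl genes, which start at -380.2 to -235.7 kb. Ppbp at -4.89 lies below 0 among those Cxcl genes, and Mthfd2l at -1.42 (-208.5 kb) lies below 0 between them and Ereg.

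The genes whose profile over the 10 libraries was nearest to that of each called member were sought among 10824 tested genes, by the root mean square difference of log2 CPM after centring each gene on its mean. Areg was nearest to Ccl4, a chemokine for T cells and monocytes (0.37), Bcl2a1d, a survival gene of the BCL2 family (0.402), and Kcnk13, a potassium channel (0.412). Ccl4 averaged 529 ± 254 CPM at day 7 and 113 ± 16.3 CPM in resting lung. Bcl2a1d has near-identical copies, so its value is uncertain. Ereg was nearest to Lif, a cytokine of the interleukin-6 family (0.336), Rnd1 (0.356) and Dtx4 (0.364), and Hbegf to Gcc1 (0.203), Il6st, the signalling receptor gp130 (0.287), and Rasip1, a gene of endothelium (0.289). Tgfa was nearest to Angptl2 (0.187), Dbn1 (0.226) and Magi3 (0.236), and Egfr to Gja1, the gap junction protein connexin 43 (0.243), Scd2 (0.245) and Ankrd46 (0.253). The distance is largely set by the difference between the 2 groups, which many genes share.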

How the data were processed

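Gene expression was measured by RNA sequencing of sorted eosinophils, with RNA extracted by Trizol and libraries made with the NEBNext Ultra II kit, per the labels' protocols. The submitters' processing notes list STAR 2.5.2b, Subread 1.5.2 with featureCounts, Trimmomatic 0.36, bcl2fastq and the build mm10. The strand setting, the annotation and the handling of multi-mapped reads are not stated in those notes as used here. The authors deposited whole-number counts per gene without normalization. Each column was tied to a sample by name, and 10 further columns, headed by bare numbers, were not used. Both tables held the same 49315 identifiers, 49056 of them with a symbol in GENCODE M21 (GRCm38, the assembly of mm10), which also gave gene spans and exon lengths. No pair of libraries of a group agreed within sampling noise (chi-square per degree of freedom at least 5.95).

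Differences were tested in edgeR 4.0.16 (R 4.3.3) with filterByExpr, TMM, group as the only term and the robust quasi-likelihood test, and Benjamini-Hochberg adjustment over 16500 genes, after a test on simulated data. Log2 fold changes give day 7 relative to resting lung, and the SE is the size of the log2 fold change over the square root of F. CPM of single genes use TMM-scaled totals, and marker sums and levels per length use library totals. Alternatives used DESeq2 1.42.0, limma-voom (limma 3.58.1), other scalings, no filter, a replicate block and each library left out. Shared replicate numbers did not pair the libraries (correlations of deviations from -0.225 to 0.142). The members and lists were chosen with earlier results of these data known. Named genes are the members, up to 4 called genes of each pathway list by adjusted p, all tested ErbB genes, tested genes near the Areg cluster, the 3 nearest profiles (log2 of CPM plus 0.5, a mean of 5 CPM or more in the group with more) and up to 3 markers of a list. Rhbdf2 was named after its values were seen. The SD and SE include the variation among the libraries of a group, while floors cover counting error only. A planned search of protein sequences was not run. The result of 1 named pathway gene is not reported here.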

Additional observations from a re-analysis of the deposited data

Results flagged for a closer look

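In day 7 replicate 1 the Ereg level of 8.23 CPM stood far from the other day 7 libraries, which ranged from 2.31 to 3.07 CPM. The summed level of dendritic cell markers in day 7 replicate 5, 285 CPM, stood above the 194 to 213 CPM of the other day 7 libraries. The highest or lowest library was taken as outlying where its gap to the nearest other library, over the range of the group, exceeded Dixon's critical value of 0.71. This held in 2 of 42 groups of 5 libraries, and chance alone marks about 1 in 20.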

How the results depend on the processing

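The calls of Areg, Hbegf, Tgfa and Egfr held under all 16 other settings tried, with log2 fold changes of 2.20 to 2.65 for Areg, -2.06 to -1.67 for Hbegf, -1.92 to -1.53 for Tgfa and -1.67 to -1.28 for Egfr. Members called higher numbered 1 with library totals alone and 1 to 2 with each library left out, since Ereg lost its call, at 1.23 with library totals and 0.93 to 1.66 with each library left out. Egf, not called, ran from -0.38 to 0.07 with each library left out, and changed sign to 0.066 without resting replicate 3. Over all genes, 2495 were called higher with library totals alone, and 6715 lower without the filter on low counts. With the replicate block 3317 genes were called higher and 3636 lower, and the calls of the 6 tested members did not change, while Erbb3 had an adjusted p of 0.0537. Nrg4 was called lower with DESeq2, with library totals, and without day 7 or resting replicate 3 (adjusted p from 0.0219 to 0.0391). Marker lists with a lower sum numbered 5 with TMM-scaled totals and 6 to 8 with each library left out. The order of ligands below Ereg rests on few counts.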
